A study of Mus musculus with 12 samples.

Results

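Pparg and 7 genes that PPARG is known to switch on in fatty liver, all but Cfd of lipid handling, were followed in 12 mouse livers. The members are Pparg, Cd36, Fabp4, Fitm1, Plin4, Cidea, Cidec and Cfd, taken by symbol, 8 of the 15846 genes in the count table. All 8 passed the filter on low counts and were tested. RNA was sequenced from livers of C57BL/6 mice aged 5 months. There were 4 groups of 3 mice: wild type on chow (WT chow), Shp Hep-/- on chow (KO chow), wild type on the diet that the labels call HFCF (WT HFCF) and Shp Hep-/- on HFCF (KO HFCF). Shp, gene symbol Nr0b2, encodes a nuclear receptor that lacks a DNA-binding domain and represses transcription through other receptors. The promoter that drives the deletion, the sex of the mice and the makeup of the diet are not given in the sources used here. The 8 genes were selected on earlier results for the diet and genotype contrasts of these same livers. No threshold was given for that choice, so every contrast is counted as used and their values are a description. Fold changes are log2 values from an edgeR fit of all tested genes, with a standard error derived from its test statistic. Passing that fit's threshold (Benjamini-Hochberg adjusted p under 0.05) is stated without a p-value for these 8.

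PPARG is a nuclear receptor that binds DNA as a pair with RXR and is activated by fatty acids and their derivatives. It is the main regulator of fat cell formation, and in liver it is usually low and rises with fat storage. Its targets cover the steps of that storage. CD36 takes up fatty acids and FABP4 carries them in the cytosol. FITM1 takes part in lipid droplet formation, PLIN4 coats droplets, CIDEA and CIDEC enlarge droplets, and CFD is a secreted complement protease made mainly by fat cells.

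The libraries held 13967116 to 18324134 counts. Nr0b2 stood at 22.4 to 53.4 CPM (counts per 1e6 library counts, scaled by TMM factors) in the 6 WT livers and at 0.21 to 1.01 CPM in the 6 KO livers, so every library matched its genotype label. Nr0b2 in KO fell by 5.44 ± 0.32 on the log2 scale on chow (edgeR adjusted p = 1.7e-07). On HFCF it fell by 7.05 ± 0.35 (edgeR adjusted p = 3.37e-08). Among the WT HFCF livers, replicate 1 stood apart. Compared with replicate 2 its chi-square per degree of freedom was 32.2, and with replicate 3 it was 34.4, while replicates 2 and 3 differed by 11.2. Member values without this liver are given below. The 7 hepatocyte markers analysed summed to 44220 to 52400 CPM in 9 livers and to 39350 to 43920 CPM in the WT HFCF livers, the group where the members were highest. By edgeR 3 of the 7 were lower with the diet in WT, where 5.9% of all tested genes were called lower. The part of this in the member values was not tested.

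Promoters of the members were searched for the direct repeat that PPAR and RXR bind. The search covered 6 of the 8 members, with 9 RefSeq start sites (GRCm38.p6), 3 of them for Pparg. Cidea and Fabp4 were not searched. The motif was AGGTCANAGGTCA, on both strands, over 250 bases before to 50 after each start, and its reverse complement was counted as the same motif. The closest match of all 9 was that of Cd36, with 2 mismatches, at positions -63 to -51 from the start. This Cd36 start lies inside the gene, and the gene's upstream end, at chr5:17888959, was not searched. A match with at most 2 mismatches stood in 3.86% of 32851 promoters. Cidec (-214 to -202 from its upstream start), Cfd (-148 to -136) and Fitm1 (-231 to -219) had a best match with 3 mismatches, which 24.6% of all promoters reach. Plin4, the 3 Pparg starts and the second Cidec start had 4 mismatches. The 250 bases before the start are shown for 3 members, the one with the closest match and those with the largest rises among the matched genes, with the best match in capitals.
Cd36, chr5:17835897-17836146, minus strand: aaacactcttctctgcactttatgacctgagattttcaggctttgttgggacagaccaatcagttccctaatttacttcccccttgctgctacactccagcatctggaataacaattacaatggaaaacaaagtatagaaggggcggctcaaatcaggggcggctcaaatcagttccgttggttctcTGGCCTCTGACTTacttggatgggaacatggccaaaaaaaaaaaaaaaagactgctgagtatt
Cidec, chr6:113435761-113436010, minus strand: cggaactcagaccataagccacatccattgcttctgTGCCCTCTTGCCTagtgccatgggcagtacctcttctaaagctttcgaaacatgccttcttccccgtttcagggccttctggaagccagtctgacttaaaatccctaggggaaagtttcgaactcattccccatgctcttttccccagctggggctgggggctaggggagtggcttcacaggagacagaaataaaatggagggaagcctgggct
Cfd, chr10:79890603-79890852, plus strand: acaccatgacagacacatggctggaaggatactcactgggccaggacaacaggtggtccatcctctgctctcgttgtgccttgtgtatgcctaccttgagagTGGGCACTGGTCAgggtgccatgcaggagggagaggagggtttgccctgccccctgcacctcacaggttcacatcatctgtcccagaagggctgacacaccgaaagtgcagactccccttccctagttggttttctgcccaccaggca
In Cd36 and Cidec the capitals carry the motif on the strand opposite to the gene, and in Cfd on the same strand. These matches are letters in a window, and binding was not measured.

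Pparg itself (ENSMUSG00000000440, mm10 chromosome 6, 115361221 to 115490401, plus strand) was lower in KO livers on both diets and moderately higher on HFCF in WT. The WT chow livers held 16, 16.7 and 16.2 CPM, and the KO chow livers 2.93, 3.1 and 5.29 CPM. The WT HFCF livers held 31.9, 32.1 and 20 CPM and the KO HFCF livers 7.48, 2.94 and 4.61 CPM. Every KO liver lay below every WT liver, and the KO groups on the different diets overlapped. Pparg in KO fell by 2.11 ± 0.29 on the log2 scale on chow, a level 4.32-fold lower, and fell by 2.49 ± 0.27 on HFCF, 5.61-fold lower. With the diet in WT it rose by 0.78 ± 0.24, and in KO the change was 0.40 ± 0.32 and did not pass. The call of the rise in WT ended without any 1 of the WT chow livers, KO chow replicate 1 or 2, WT HFCF replicate 1 or 2, or KO HFCF replicate 3. It also ended with the replicate number as a block, and fold changes were 0.67 to 0.97 over all alternatives. Counts are per gene and do not separate the transcripts from the 3 Pparg starts. In whole liver RNA, fewer cells of a type and less RNA per cell cannot be told apart.

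**Figure D1:**
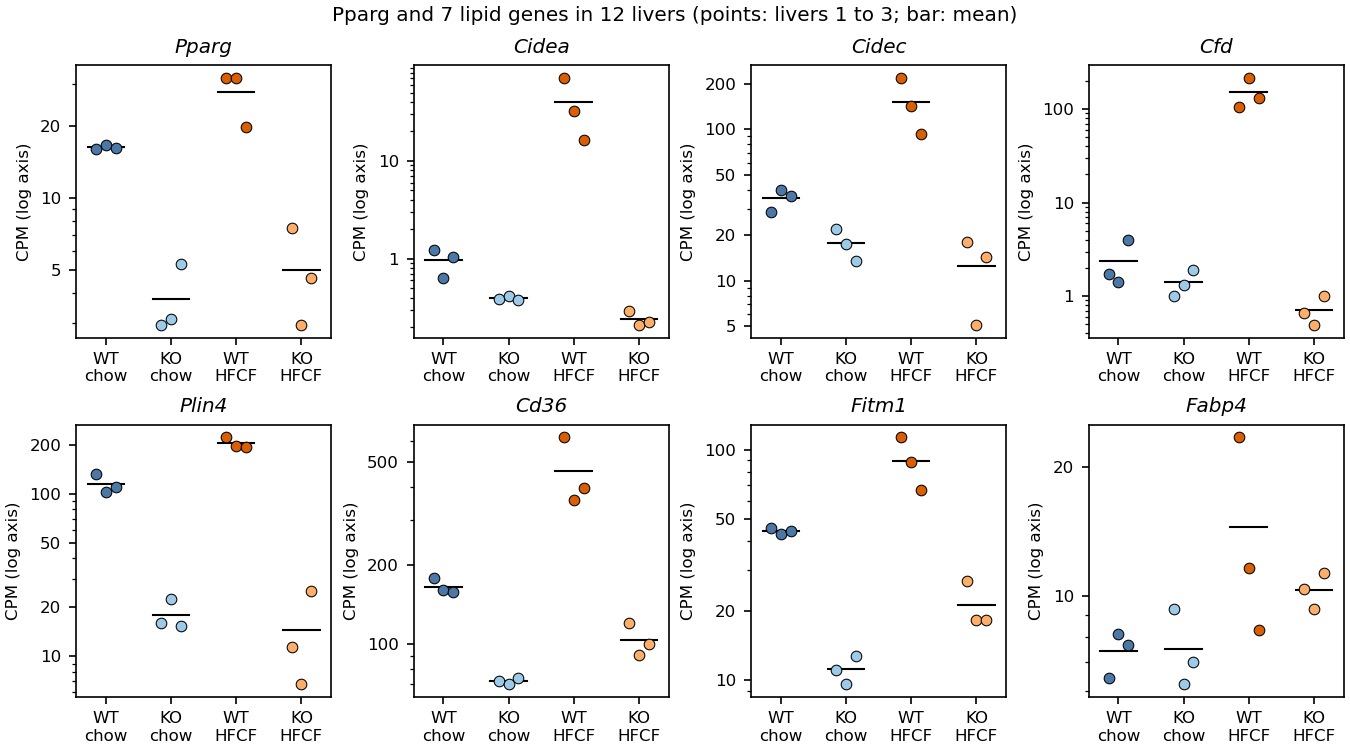
CPM of each of the 8 genes (vertical log axis) in the 12 livers, by group (horizontal axis); points are livers 1 to 3 and bars are group means. In WT HFCF, Cfd stands at 104 to 217 CPM, against at most 3.94 CPM in the 9 other livers, while Fabp4 overlaps between WT HFCF and KO HFCF.

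The fatty acid uptake and transport members behaved differently from each other. Cd36 (ENSMUSG00000002944, chromosome 5, 17781690 to 17888959, minus strand) was measured at 178, 162 and 158 CPM in WT chow and at 72, 69.9 and 73.8 CPM in KO chow. The WT HFCF livers held 623, 358 and 398 CPM and the KO HFCF livers 120, 90.6 and 100.1 CPM. No 2 of its groups overlapped, and their order was WT HFCF, WT chow, KO HFCF, KO chow. Cd36 rose with the diet in WT by 1.47 ± 0.17, and in KO fell by 1.21 ± 0.17 on chow and fell by 2.15 ± 0.17 on HFCF. In KO the diet change was 0.53 ± 0.17 and did not pass, although it did without WT HFCF replicate 1 (0.53), with DESeq2 (0.53) and in a fit of the KO livers alone (0.52). Fabp4 (ENSMUSG00000062515, chromosome 3, 10204347 to 10208576, minus strand) was the member without a genotype call on either diet. The WT chow livers held 6.43, 8.14 and 7.67 CPM, and KO chow livers had 9.3, 6.21 and 6.99 CPM. The HFCF livers gave 23.5, 11.6 and 8.31 CPM in WT and 10.4, 9.3 and 11.3 CPM in KO. WT HFCF replicate 1 was the highest of all 12 livers, and the WT HFCF and KO HFCF groups overlapped. Fabp4 rose with the diet in WT by 0.97 ± 0.30, and the value was 0.42 without WT HFCF replicate 1. The call also ended without any 1 of the WT chow livers, KO chow replicate 3, or any 1 of the KO HFCF livers. It ended too in a fit of the WT livers alone and with the replicate number as a block. The genotype difference of Fabp4 was 0.02 ± 0.31 on chow (95% interval -0.64 to 0.69) and -0.49 ± 0.28 on HFCF (-1.10 to 0.12). The second value was 0.06 without WT HFCF replicate 1, and -0.77 with a call without WT HFCF replicate 3.

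Fitm1 was the member whose diet change passed in both genotypes in the fit of all livers, while the rise of Cd36 in KO did not pass there. It encodes an endoplasmic reticulum protein of lipid droplet formation (ENSMUSG00000022215, chromosome 14, 55575674 to 55576952, plus strand). The WT chow livers held 45.7, 43 and 44.4 CPM, and KO chow livers had 11.1, 9.59 and 12.7 CPM. The HFCF values were 114, 88.1 and 67.1 CPM in WT and 27, 18.2 and 18.2 CPM in KO. All 4 groups were apart, with each KO group below both WT groups. Fitm1 rose with the diet by 1.01 ± 0.17 in WT and by 0.91 ± 0.20 in KO. The difference between these diet effects was -0.10 ± 0.26, with a 95% interval of -0.66 to 0.46. Fitm1 in KO fell by 1.99 ± 0.19 on chow and fell by 2.09 ± 0.18 on HFCF, levels 3.97-fold and 4.26-fold lower. The diet call in KO ended without KO chow replicate 1 or 2 or KO HFCF replicate 1, with fold changes of 0.72 to 1.02 over all alternatives.

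Plin4 had the largest genotype difference of the members on chow. It encodes perilipin 4, a droplet coat protein with a long repeat region (ENSMUSG00000002831, chromosome 17, 56100591 to 56109802, minus strand). The WT chow livers held 132, 102 and 110 CPM, and KO chow livers had 16, 22.4 and 15.3 CPM, which is 6.42-fold lower (-2.68 ± 0.31). The WT HFCF livers held 224, 196 and 193 CPM and the KO HFCF livers 11.3, 6.71 and 25.3 CPM, 13.9-fold lower (-3.79 ± 0.33). The WT groups did not overlap, but the diet change in WT, 0.83 ± 0.28, did not pass in the fit of all livers. It passed in 3 of 17 alternatives, with values of 0.76 to 0.96 over all of them. The KO groups overlapped, with a change of -0.28 ± 0.32. That value was 0.05 without KO HFCF replicate 2 and -0.99, a called fall, without KO HFCF replicate 3.

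The CIDE genes were the droplet members with a large rise in WT HFCF and no call for the diet in KO. Cidea (ENSMUSG00000024526, chromosome 18, 67343564 to 67367794, plus strand) was measured at 1.22, 0.637 and 1.04 CPM in WT chow and at 0.387, 0.414 and 0.378 CPM in KO chow. On HFCF the WT livers gave 71, 32.2 and 16.2 CPM and the KO livers 0.29, 0.21 and 0.225 CPM. The KO HFCF values rest on 4, 3 and 4 counts. Every WT HFCF liver stood above all 9 others and they differed widely among themselves. The rise in WT was 5.36 ± 0.51, and the level in KO HFCF was 161-fold below that in WT HFCF (-7.33 ± 0.62). The genotype difference on chow (-1.28 ± 0.92) and the diet change in KO (-0.69 ± 1.23) did not pass. Cidec (ENSMUSG00000030278, chromosome 6, 113424634 to 113435760, minus strand) was present at higher levels in every group. The WT chow livers held 28.7, 40.1 and 36.3 CPM, and KO chow livers had 22, 17.5 and 13.5 CPM. The HFCF values were 220, 144 and 92.8 CPM in WT and 18.1, 5.1 and 14.4 CPM in KO. KO livers lay below WT livers on each diet, and the KO groups overlapped. Cidec rose with the diet in WT by 2.12 ± 0.34 and was 12.1-fold lower in KO on HFCF (-3.60 ± 0.37). On chow the genotype difference was -0.98 ± 0.36 and did not pass in the fit of all livers. It passed without WT HFCF replicate 1 or 3 or KO HFCF replicate 2, and in a fit of the chow livers alone.

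Cfd had the lowest log2 fold change of all 14736 tested genes for KO against WT on HFCF, and Cidea the next. It encodes complement factor D, also called adipsin (ENSMUSG00000061780, chromosome 10, 79890853 to 79892656, plus strand). The WT chow livers held 1.72, 1.42 and 3.94 CPM, and KO chow livers had 0.996, 1.31 and 1.89 CPM, which overlapped. The WT HFCF livers held 104, 217 and 130 CPM and the KO HFCF livers 0.654, 0.489 and 1.01 CPM. Cfd was highest in WT HFCF replicate 2, whereas Cidea, Cidec, Cd36, Fitm1, Plin4 and Fabp4 were highest in replicate 1. The rise in WT was 5.98 ± 0.34. The KO HFCF level was 201-fold below that of WT HFCF (-7.65 ± 0.39). The KO change with the diet, -0.90 ± 0.63, did not pass, nor did the genotype difference on chow, -0.77 ± 0.50.

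Counted over the members, 7 of 8 rose with the diet in WT, where 7.76% of tested genes were called higher, 5.9% lower and 13.7% in either direction. The remaining gene was Plin4. In KO, 1 of 8 rose (Fitm1), against 1.47% of tested genes called higher, 1.18% lower and 2.65% in either direction. Members called lower in KO were 4 of 8 on chow (Pparg, Plin4, Cd36 and Fitm1), against 5.82% of tested genes called lower, 9.72% higher and 15.5% in either direction. On HFCF 7 of 8 were lower, all but Fabp4, against 8.52% called lower, 10.6% higher and 19.1% in either direction. The diet effect differed between genotypes for Cfd (-6.88 ± 0.75, KO minus WT) and Cidec (-2.62 ± 0.51), where 0.421% of tested genes were called lower, 0.373% higher and 0.794% in either direction. Cidea had an interaction of -6.05 ± 1.47 that did not pass in the fit of all livers. It did with DESeq2, with the replicate number as a block, and without WT HFCF replicate 1 or 3. The interaction of Cd36, -0.94 ± 0.24, did not pass in the fit of all livers but did with DESeq2 and with the block. The call of Cidec ended without any 1 of the WT chow or KO HFCF livers, KO chow replicate 1 or 3, or WT HFCF replicate 2. Without WT HFCF replicate 1 the diet change in WT was 4.64 for Cidea, 1.75 for Cidec, 6.19 for Cfd, 1.19 for Cd36, 0.81 for Fitm1 and 0.76 for Plin4, on the same side of the threshold as with it. Without that liver the genotype difference on HFCF was -2.38 for Pparg, -6.60 for Cidea, -3.23 for Cidec, -7.86 for Cfd, -3.72 for Plin4, -1.87 for Cd36 and -1.88 for Fitm1, all still called. Since the members were chosen with these results known and the contrasts share livers, the shares are no evidence about the members. The median log2 fold change of the 8 genes was 1.24 for the diet in WT, 0.06 for the diet in KO, -1.24 for the genotype on chow and -3.04 on HFCF. Over all tested genes these medians lay between -0.0033 and 0.0201. Groups did not overlap for 8 members with the diet in WT (31.1% of tested genes), 4 with the diet in KO (24.4%), 6 for the genotype on chow (36.1%) and 7 on HFCF (34.2%).

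**Figure D2:**
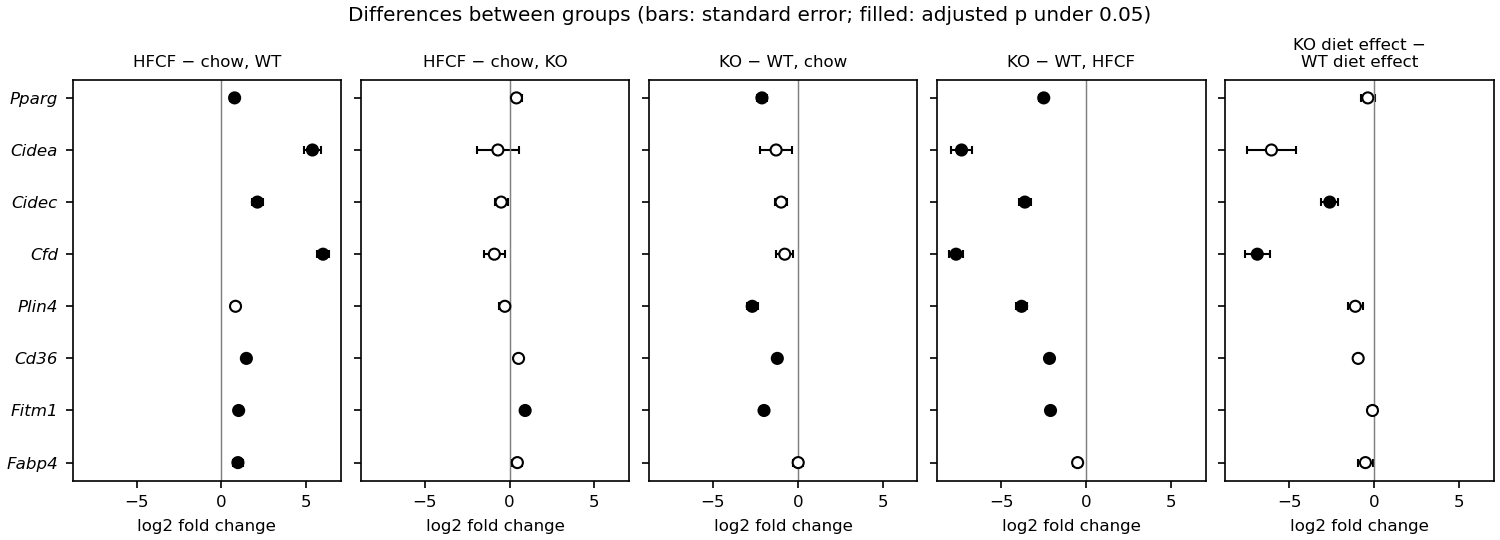
Log2 fold change (horizontal axis) of each gene (vertical axis) in 4 comparisons and in the difference of the diet effects; bars are standard errors, and filled points passed an adjusted p under 0.05. Cfd and Cidea have the largest values for the diet in WT (5.98 and 5.36) and for the genotype on HFCF (-7.65 and -7.33).

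Compared per length, in FPKM, the members changed order between groups. In WT chow the highest were Fitm1 at 48.1 ± 1.97 (SD, n = 3) and Cd36 at 41.8 ± 3.22 FPKM, and the lowest was Cidea at 0.82 ± 0.259 FPKM. In WT HFCF, Cfd led at 165 ± 62.2 FPKM, above 97.7% of genes in the table, from 2.52 ± 1.47 FPKM and 45.3% in WT chow. Cidea, above 25.7% of genes in WT chow, lay above 90.9% in WT HFCF at 34.5 ± 24.5 FPKM and above 6.44% in KO HFCF at 0.202 ± 0.0331 FPKM. Pparg stood at 8.13 ± 0.106 FPKM in WT chow, above 71% of genes, and at 14.2 ± 3.35 FPKM in WT HFCF, above 81%. In KO chow it stood at 1.96 ± 0.733 FPKM (37.5%) and in KO HFCF at 2.45 ± 1.09 FPKM (43.2%). In KO HFCF the leading members were Cd36 (25.7 ± 3.37 FPKM), Fitm1 (22.5 ± 5.09) and Fabp4 (15.8 ± 1.39). The Cd36 and Fitm1 values there differed by less than their spread.

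Relatives of the members in the same protein families were read beside them. Ppara, the receptor of fatty acid oxidation, stood at 77 ± 2.18 FPKM in WT chow, well above Pparg, and in KO fell by 0.43 ± 0.09 on HFCF (edgeR adjusted p = 0.00406). With the diet in WT Ppara rose by 0.34 ± 0.09 (edgeR adjusted p = 0.0196), a call lost without WT chow replicate 1. On chow the Ppara difference was -0.29 ± 0.09 (edgeR adjusted p = 0.0383). It no longer passed when leaving out any 1 of the WT chow livers or KO chow replicate 2 or 3, or with the replicate number as a block. Ppard stood at 0.264 to 0.476 FPKM on average over the groups. Cideb, the CIDE protein of lipoprotein loading, stood at 50.7 ± 5.54 FPKM in WT chow and 59.2 ± 5.91 in WT HFCF. It did not pass for the diet in WT (0.19 ± 0.11, edgeR adjusted p = 0.278) or for the genotype on HFCF (-0.13 ± 0.11, edgeR adjusted p = 0.463). Plin2, the general droplet coat of liver, was the most abundant perilipin at 209 to 303 FPKM on average and also did not pass in these comparisons (0.07 ± 0.24, edgeR adjusted p = 0.876, and -0.47 ± 0.24, edgeR adjusted p = 0.205). Plin5, a droplet coat linked to oxidation, with the diet in WT fell by 0.78 ± 0.20 (edgeR adjusted p = 0.018). Only the call was lost without WT chow replicate 1 or 3, and fold changes were -0.86 to -0.70 over all alternatives. Plin3, another perilipin, rose with the diet in WT by 0.42 ± 0.13 (edgeR adjusted p = 0.0482), a call kept in 7 of 17 alternatives.
Fitm2 rose with the diet in WT by 0.51 ± 0.14 (edgeR adjusted p = 0.0249), a call lost without WT chow replicate 1 or 2 or WT HFCF replicate 1. In KO on HFCF Fitm2 fell by 0.90 ± 0.14 (edgeR adjusted p = 0.000517), in the same direction as Fitm1 but by less. Fabp1, the liver fatty acid-binding protein, there fell by 0.55 ± 0.15 (edgeR adjusted p = 0.0188), a call lost without WT HFCF replicate 2 or KO HFCF replicate 2. Fabp5, a fatty acid-binding protein of skin and macrophages, rose there by 1.16 ± 0.35 (edgeR adjusted p = 0.0322), a call lost without WT HFCF replicate 1 or 3 or KO HFCF replicate 3. The tests of relatives were not tests of the difference between a member and its relative.

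**Figure D3:**
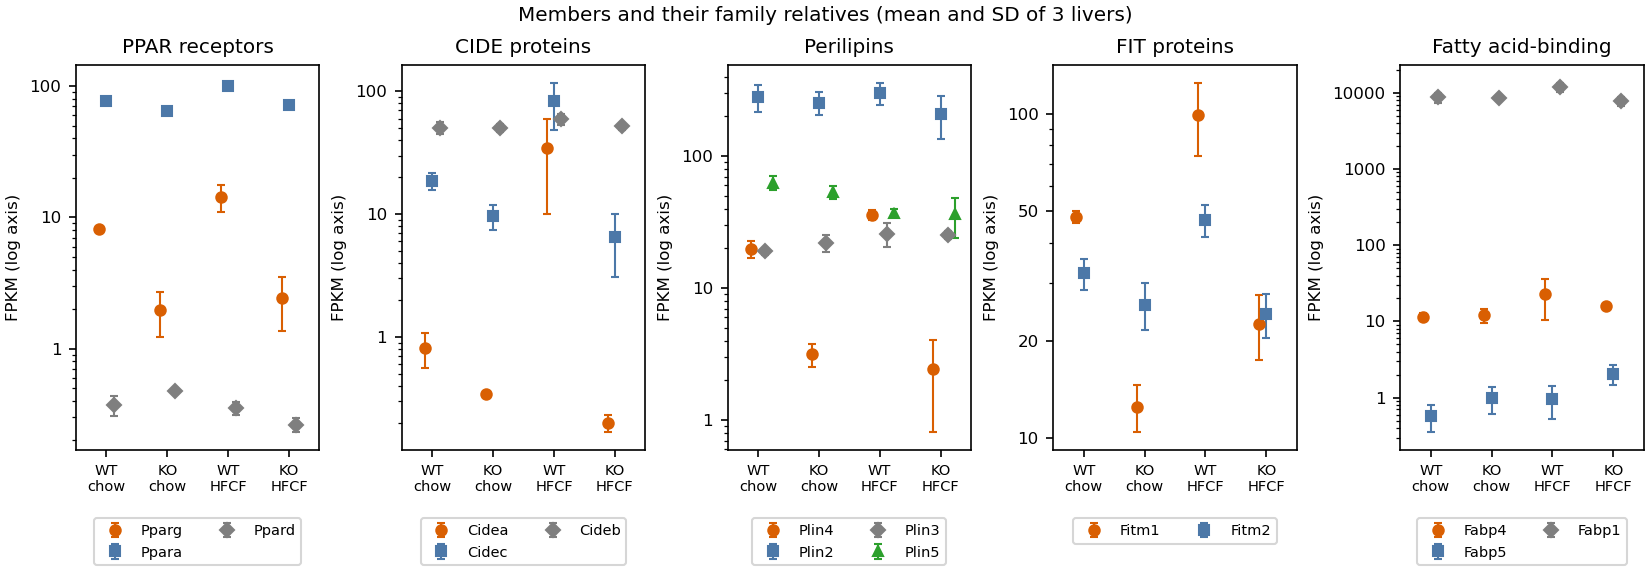
Mean FPKM with SD of 3 livers (vertical log axis) for members (orange circles, and Cidec as blue squares) and relatives in 5 protein families, by group (horizontal axis). Cideb stays between 50.7 and 59.2 FPKM while Cidea ranges from 0.202 to 34.5 FPKM.

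Partners and coregulators of PPARG moved in both directions, and most did not pass the test. In a list of 30 receptors, cofactors and adipogenic factors, 29 were tested, and 4 rose and 1 fell with the diet in WT, with a list median of -0.05. Of all tested genes 7.76% were called higher there and 5.9% lower, 13.7% in either direction. Rxra, its DNA-binding partner, stood at 76.4 to 87.3 FPKM on average in the 4 groups. Tle3, a corepressor family member that acts with PPARG in fat cells, rose with the diet in WT by 0.98 ± 0.11 (edgeR adjusted p = 9.9e-05) and was higher in KO on chow by 0.84 ± 0.11 (edgeR adjusted p = 0.000299). Zfp423, a factor of fat cell commitment, rose with the diet in WT by 2.06 ± 0.31 (edgeR adjusted p = 0.00101) and in KO on HFCF fell by 1.33 ± 0.28 (edgeR adjusted p = 0.00486), at under 2.2 CPM in all livers. Lpin1, a phosphatidate phosphatase and coactivator, with the diet in WT fell by 1.45 ± 0.27 (edgeR adjusted p = 0.00334). In KO, 3 rose and 2 fell on chow (median 0.15), and 3 rose and 3 fell on HFCF (median 0.03). Of all tested genes 15.5% were called in either direction on chow and 19.1% on HFCF. The list counts in WT and KO were near the shares of all tested genes. The diet effect on Tle3 differed between genotypes (-0.75 ± 0.15, edgeR adjusted p = 0.0423), a call kept in 5 of 16 alternatives. Hdac3, a corepressor enzyme, in KO on HFCF fell by 0.34 ± 0.08 (edgeR adjusted p = 0.00969). With the diet in KO edgeR called 0 of 29, against 2.65% of all tested genes, and DESeq2 also called 0 of the list. An unadjusted edgeR p under 0.05 was reached by 4 higher and 3 lower genes.

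Other lipid genes that respond to PPARG moved in both directions. Of 36 listed, 30 were tested, and 9 rose and 4 fell with the diet in WT (list median 0.12). Of all tested genes 7.76% were called higher there and 5.9% lower. Lpl, the lipoprotein lipase, rose by 1.58 ± 0.13 (edgeR adjusted p = 1.06e-05) and Scd1, the stearoyl-CoA desaturase, by 2.50 ± 0.30 (edgeR adjusted p = 0.000187). G0s2, an inhibitor of triglyceride lipase, rose by 1.95 ± 0.27 (edgeR adjusted p = 0.000486). In KO on HFCF, 4 rose and 12 fell (median -0.36), where 10.6% of all tested genes were called higher and 8.52% lower. Mogat1, a monoacylglycerol acyltransferase, fell by 4.43 ± 0.52 (edgeR adjusted p = 7.62e-05), from 8.62 ± 6.03 CPM in WT HFCF to 0.409 ± 0.221 CPM (SD, n = 3). Its highest value was in WT HFCF replicate 1, and without that liver the fold change was -3.68, still called. Vldlr, the receptor of very low density lipoprotein, fell by 2.53 ± 0.30 (edgeR adjusted p = 8.12e-05). By genotype Lpl differed in the direction opposite to Pparg, Plin4, Cd36 and Fitm1. It stood at 14.2 ± 0.637 CPM in WT chow, 46.6 ± 6.75 in KO chow, 42.4 ± 5.66 in WT HFCF and 99.5 ± 12.3 in KO HFCF. On chow it was higher in KO by 1.72 ± 0.13 (edgeR adjusted p = 3.66e-06). On HFCF the difference was 1.23 ± 0.12 (edgeR adjusted p = 1.85e-05), and Lpl rose with the diet in KO by 1.09 ± 0.12 (edgeR adjusted p = 0.00028). On chow in KO, 2 rose and 5 fell (median -0.18), among them Slc27a1, a fatty acid transporter, by 1.31 ± 0.15 (edgeR adjusted p = 0.000109) and Vldlr by 2.03 ± 0.33 (edgeR adjusted p = 0.00137). With the diet in KO, 1 rose and 2 fell (median -0.07). Of all tested genes 9.72% were called higher and 5.82% lower in KO on chow, and 1.47% and 1.18% with the diet in KO.

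Among 19 tested droplet proteins outside the members, 6 rose and 1 fell with the diet in WT (list median 0.19), and 2 fell in KO on HFCF (median -0.07), Fitm2 and G0s2. The list shares G0s2, Lipe, Mgll, Plin2, Plin5 and Pnpla2 with the PPARG-responsive one. Lipe, the hormone-sensitive lipase, rose with the diet in WT by 0.87 ± 0.12 (edgeR adjusted p = 0.000639), and Hsd17b11, a droplet dehydrogenase, by 0.65 ± 0.11 (edgeR adjusted p = 0.00151). Of 26 PPARA oxidation targets, 2 rose and 6 fell with the diet in WT (median -0.11). Cyp4a14, a fatty acid omega-hydroxylase, with the diet in WT fell by 2.00 ± 0.26 (edgeR adjusted p = 0.000315) and in KO by 1.44 ± 0.25 (edgeR adjusted p = 0.00735). In KO on HFCF 3 rose and 7 fell (median -0.09), with Pex11a, a peroxisome division factor, at -1.14 ± 0.21 (edgeR adjusted p = 0.00176). Cyp4a genes have close paralogs, so their separate counts are uncertain. The medians of all tested genes, given above, lay close to 0 in each comparison. Of all tested genes 7.76% were called higher and 5.9% lower with the diet in WT. For KO on HFCF these shares were 10.6% and 8.52%.

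**Figure D4:**
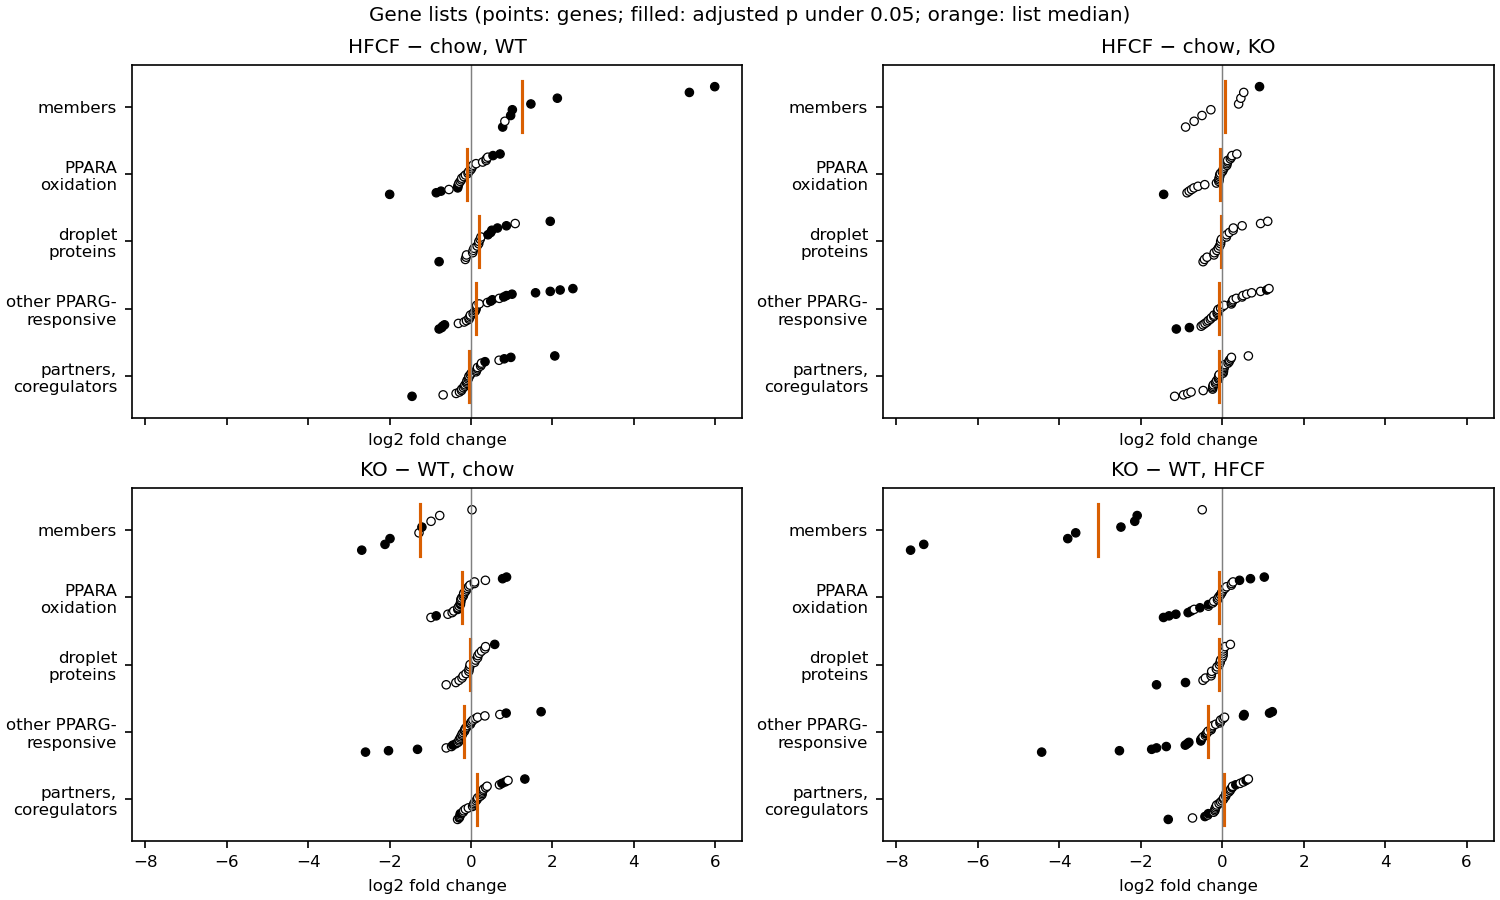
Log2 fold changes (horizontal axis) of the tested genes of the 8 members and of 4 gene lists (vertical axis) in 4 comparisons; filled points passed an adjusted p under 0.05 and orange lines are list medians. For the genotype on HFCF the median is -3.04 for the members and -0.36 for other PPARG-responsive genes.

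Among genes without a provisional symbol, Clstn3, Mtch1, Aspg, Olig1 and Ppp1ca followed the level of Pparg most closely over the 12 livers. Their Pearson's r was 0.983, 0.982, 0.979, 0.977 and 0.975, among 11547 ranked genes (mean CPM of 1 or more). Likeness was measured on log2 CPM. The points share groups and libraries, so r is given as a description. Clstn3, which encodes calsyntenin 3, stood at 40.6 ± 2.77 CPM in WT chow, 14.3 ± 1.69 in KO chow, 79.4 ± 11 in WT HFCF and 16.4 ± 5.85 in KO HFCF (SD, n = 3). Olig1, a transcription factor gene, stood at 3.32 to 4.1 CPM in WT chow and at 0.207 to 0.332 CPM in KO chow. Mtch1 covered a narrow range, from 51.5 to 74.9 CPM over all livers. Of the members Fitm1 was at rank 9 (r = 0.963), Plin4 was at rank 74 (0.923), Cd36 at 96 (0.914) and Cidec at 203 (0.88). Cidea (0.821), Cfd (0.783) and Fabp4 (0.386) came later, at ranks 475, 661 and 2950. With group means removed, r was 0.806 for Fitm1, 0.605 for Cidec, 0.466 for Cd36, 0.411 for Cidea, 0.332 for Cfd, 0.309 for Fabp4 and 0.199 for Plin4. For the 5 leading genes it was 0.723 to 0.899. With Spearman's rho 0 of the 5 leading genes stayed among the first 5, with values of 0.867 to 0.958.

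Several members are also markers of other cells, so markers of those cells were read beside them. Of 11 adipocyte markers, 4 were analysed here (Adrb3, Adig, Trarg1 and Acvr1c), and Adipoq, Lep, Retn, Plin1, Lgals12, Hcar1 and Aoc3 were not analysed here. Their sum was 2.57 to 3.39 CPM in WT chow, 5.73 to 6.42 in KO chow, 2.23 to 3.69 in WT HFCF and 6.8 to 8.04 in KO HFCF. The KO groups were higher through Adrb3, a beta-adrenergic receptor, which made up 78.4 to 92.2% of the sum in KO livers and 30.8 to 67.3% in WT livers. Without Adrb3 the other 3 markers summed to 2.56, 0.973 and 1.09 CPM in WT HFCF and to 0.872, 0.629 and 1.07 CPM in KO HFCF. Adrb3 rose in KO by 1.44 ± 0.22 on chow (edgeR adjusted p = 0.000913). On HFCF it rose by 2.13 ± 0.22 (edgeR adjusted p = 2.88e-05). Adig, a small adipocyte protein below the filter on low counts, had 30, 2 and 4 counts in WT HFCF replicates 1 to 3, against at most 3 counts in each of the 9 other livers. Most of its WT HFCF counts thus came from the liver that stood apart. Acvr1c, also below the filter, had 20 counts over the WT HFCF livers and 8 over the KO HFCF livers. The part of fat cells in the member values was not tested. Of 4 brown adipocyte markers only Cox7a1 was analysed here, at 0.419 to 1.59 CPM over all livers.
Macrophage markers, of which 12 of 12 were analysed, summed to 337 to 378 CPM in WT chow, 528 to 540 in KO chow and 713 to 772 in KO HFCF. In WT HFCF they summed to 622, 390 and 322 CPM in replicates 1 to 3, the highest being the liver with the highest Fabp4, Cd36 and Cidea. By edgeR 8 of the 12 were higher in KO on each diet, where 7 members were lower on HFCF. Of all tested genes 9.72% were called higher in KO on chow and 10.6% on HFCF. The 8 endothelial markers summed to 450 to 491 CPM over all livers. The 8 stellate and fibroblast markers summed to 335 to 376 CPM in WT chow, 444 to 465 in KO chow, 424 to 460 in WT HFCF and 400 to 493 in KO HFCF. The part of macrophages in the Fabp4 and Cd36 values was not tested.

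**Figure D5:**
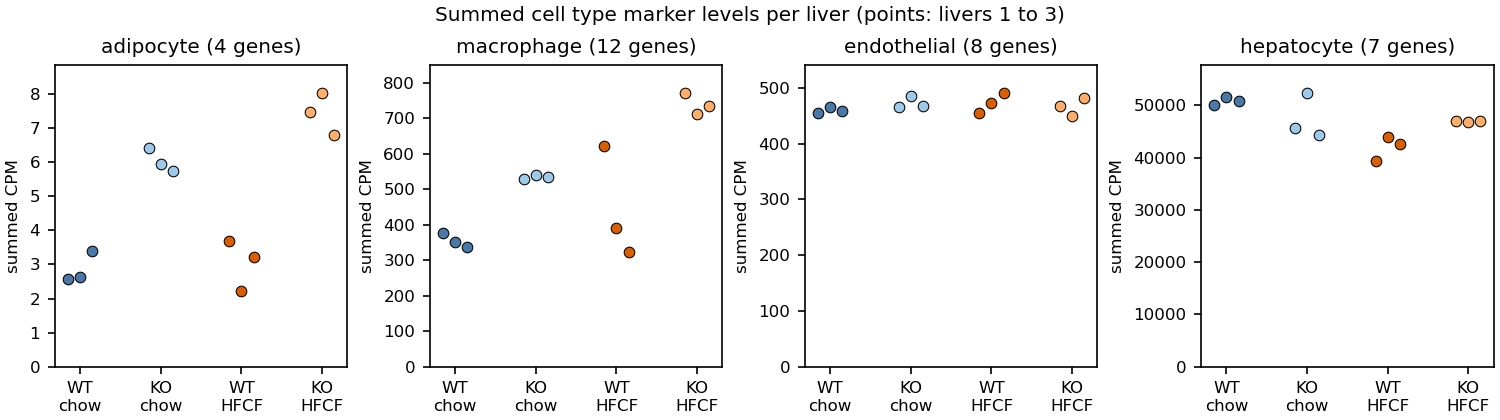
Summed CPM of the analysed markers of 4 cell types (vertical axes from 0) per liver and group (horizontal axis); points are livers 1 to 3. Adipocyte markers, 78.4 to 92.2% of them Adrb3 in KO livers, are at 2.23 to 3.69 CPM in WT HFCF and 6.8 to 8.04 CPM in KO HFCF, and macrophage markers reach 622 CPM in WT HFCF replicate 1.

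GENCODE M21 places a gene on the opposite strand over 4 members. The library kit keeps strand, but whether counting used it was not given in the sources used here, so such reads cannot be told apart. B430212C06Rik, opposite Cidea, stood at 0.281 ± 0.119 CPM in WT chow, 0.167 ± 0.0749 in KO chow, 3.31 ± 2.38 in WT HFCF and 0.175 ± 0.0395 in KO HFCF (SD, n = 3). Gm15932, opposite Fitm1, stood at 31.2 ± 1.64, 24.6 ± 1.17, 39.1 ± 4.94 and 28 ± 2.04 CPM in the same order of groups. Hdgfl2, listed as Hdgfrp2 and opposite Plin4, stood between 23.2 and 24.7 CPM on average. Gm44079, opposite Pparg, was not analysed here.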

How the data were processed

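RNA from 12 mouse livers was sequenced with a stranded, ribosomal RNA-depleting kit, per the labels' protocols. The authors deposited read counts per gene, FPKM values and gene lengths in 1 table, per the file headers. Coordinates are on mm10, the build in the submitters' processing notes. Which aligner and counter were used, and with which strand setting, is not given in the sources used here. Deposited FPKM values were used to describe levels of genes and groups, and no test used them. Counts were analysed with edgeR 4.0.16 in R 4.3.3: TMM scaling, filterByExpr with a minimum count of 10 (14736 of 15846 genes kept), 1 mean per group, a quasi-likelihood test of each contrast, and Benjamini-Hochberg adjustment over all tested genes with a threshold of 0.05. The interaction is the diet effect in KO minus that in WT. CPM values use TMM-scaled library sizes. Likeness to Pparg used log2 CPM with a prior count of 2 and left out genes with provisional symbols. The edgeR procedure was also run on counts simulated with the dispersions of these data and no outlying liver, and the outcome is not given here.

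The members and lists were chosen with earlier results of these data known. Named genes were the members, Nr0b2, family relatives, up to 4 called genes with the lowest adjusted p per list and contrast, the 5 genes most like Pparg, and cell type markers. Not all genes this rule allows are named. The labels do not say how replicate livers relate beyond their numbers, and p-values measure the spread between these samples. Alternatives were RLE scaling, no filter, DESeq2 1.42.0, a replicate block, fits of the compared groups alone, leaving out each library, and Spearman correlation or a prior count of 0.5 for likeness. Figures were drawn with matplotlib 3.10.9.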

Additional observations from a re-analysis of the deposited data

Results flagged for a closer look

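The diet effect differed between genotypes for 4 of the genes described, by the interaction term of the edgeR fit, given as KO minus WT on the log2 scale. The members among them, Cfd (-6.88 ± 0.75) and Cidec (-2.62 ± 0.51), were chosen with such results known. Tle3, a corepressor family gene, had a difference of -0.75 ± 0.15. Gpnmb, a macrophage marker, had a difference of -4.99 ± 0.84. On chow its counts in replicates 1 to 3 were 5, 4 and 7 in WT and 253, 206 and 251 in KO. On HFCF they were 173, 53 and 18 in WT and 107, 62 and 106 in KO. The genotypes were thus apart on chow, with KO higher, and overlapped on HFCF. Without WT HFCF replicate 1 the Gpnmb difference was -3.93, still called. The Gpnmb call ended without any 1 of the WT chow livers, KO chow replicate 1 or 3, or KO HFCF replicate 2 or 3.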

How the results depend on the processing

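Cfd kept its interaction call in all 16 alternatives, and the genotype calls of Pparg, Plin4, Cd36 and Fitm1 on both diets, and of Cidea, Cidec and Cfd on HFCF, were kept in all 17. With DESeq2 the diet in KO gave 2 members, 10 listed pathway genes and 649 genes of all, and the interaction 4 members, 4 pathway genes and 348 of all, against 1, 4, 390, 2, 1 and 117 in edgeR. Fits of the compared groups alone gave 2 members and 603 genes for the diet in KO. Correlations of same-numbered deviations from the group means ran from -0.148 to 0.167. With 3 livers per group these cannot show whether the replicate numbers pair the livers. With a replicate block, 7 pathway genes were called for the diet in KO and 4 members for the interaction, and the Fabp4 difference on chow was -0.015. The block also ended the calls of Pparg, Fabp4 and Plin3 for the diet in WT, Ppara on chow and the Tle3 interaction, while the interactions of Cidea and Cd36 passed. With Spearman's rho, 0 of the 5 genes most like Pparg stayed, and leaving out 1 library kept 3 to 5.

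Leaving out each library in turn gave 5 to 7 members for the diet in WT, 0 to 2 for the diet in KO, 4 to 5 and 7 to 8 for the genotype on chow and HFCF, and 1 to 3 for the interaction. Over all genes the counts, in that order, were 1100 (without WT chow replicate 3) to 2264, 157 (without KO chow replicate 1) to 776 (without WT HFCF replicate 1), 1152 (without WT chow replicate 3) to 2788, 2042 to 2834, and 11 (without KO HFCF replicate 2) to 136. For pathway genes they were 18 to 29, 2 to 8, 11 to 26, 24 to 35 and 0 to 1.

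Among member and Plin2 fold changes, 11 values turned sign, each close to 0 with no call. With each library left out in turn, Fabp4 on chow ran from -0.17 to 0.14 and on HFCF from -0.77 (without WT HFCF replicate 3, called) to 0.058 (without WT HFCF replicate 1), with an interaction of -0.79 to 0.035. The Fitm1 interaction ran from -0.30 to 0.11, Plin4 for the diet in KO from -0.99 (without KO HFCF replicate 3, called) to 0.048, and Plin2 for the diet in WT from -0.089 to 0.24. The causes were not tested. Low counts limit Cidea in the KO livers.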
